A study of Drosophila melanogaster with 30 samples.

Results

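Insulator elements were placed as candidate silencers in a reporter screen in Drosophila melanogaster embryos, and their abundance was followed from sorted control cells to mesodermal cells with reduced GFP. Members were all windows whose name begins with ClassI_ins, the genomic class I insulators, or with ins_, the named insulators. These were 30 of the 576 elements listed in round 1 of the screen, with 24 class I and 6 named elements. In round 2 they were 4 of 188 listed elements, ClassI_ins_198 and the named elements ins_1A2_assoc_peak, ins_Fab-7_minimal_overlap and ins_SF1_assoc_peak_center. All 4 were also listed in round 1, so 30 distinct insulators stood among 591 distinct elements.

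In the screen a ubiquitous strong enhancer drives GFP from a reporter that also carries one candidate element, and an element that reduces GFP is meant to be recovered more often from dim cells. Males with random picks of the reporter insertion pool were crossed to twi:CD2 females, in which the twist promoter puts the CD2 surface protein on mesodermal cells. Embryos were collected over 2.25 hours and aged for 11 hours at 18 degrees, and cells were sorted by CD2 and by GFP. Round 1 had 3 populations, low-GFP CD2+ cells, CD2+ cells and CD2- cells, each from 6 collection days, which gave 18 libraries. Round 2 had low-GFP CD2+ and CD2+ cells from 6 days, which gave 12 libraries. All libraries have the same strain label, so every population carried reporter insertions and twi:CD2. How many fly lines, cells and template molecules stood behind each element is not given in the labels. Libraries held 3399506 to 5934098 read 1 counts in round 1 and 2928510 to 5488936 in round 2.

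Insulators are DNA elements that hold regulatory domains apart. Placed between an enhancer and a promoter they can block activation, and at domain borders they can keep active and repressed chromatin from spreading. In Drosophila they are bound by proteins such as CTCF, CP190, BEAF-32 and Su(Hw), and class I insulators are a genome-wide group defined by the binding of CTCF, CP190 and BEAF-32. Fab-7 and Fab-8 separate regulatory domains of the Hox gene Abd-B in the bithorax complex. The element 1A2 lies near yellow (y) and holds Su(Hw) sites, SF1 lies near ftz in the Antennapedia complex, and scs and scs-prime flank a pair of hsp70 heat-shock genes.

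The inserts were recovered with barcodes, and the count files pair each element with a barcode of 12 bases that identifies it in the pool. The barcodes of the 6 named insulators, the elements with a known place in the genome, are given in capitals throughout. The chromosome arm in each line is that of the neighbouring gene in the RefSeq gene table.
ins_Fab-8, near Abd-B on chromosome arm 3R: TCTTCAGTCCTA
ins_Fab-7_minimal_overlap, near Abd-B on chromosome arm 3R: GCTTCTTGGTGC
ins_SF1_assoc_peak_center, near ftz on chromosome arm 3R: GCTTGGGACTTG
ins_1A2_assoc_peak, near y on chromosome X: TACGGTCTTGCT
ins_scs, near Hsp70Aa on chromosome arm 3R: AACAGGCAGGCA
ins_scs-prime, near Hsp70Aa on chromosome arm 3R: ATGAAGCAGGCG
The barcodes of the 30 insulators were all distinct, and each differed from the nearest other barcode of the screen by 3 or 4 bases. An element had the same barcode in both rounds.

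Many insulators were not recovered at all. In round 1, 18 of the 30 had a count in at least 1 of the 18 libraries, and 12 had none, which is 40.0% against 27.8% of all 576 listed elements. Among class I elements 17 of 24 were seen, and the 7 not seen were ClassI_ins_133, ClassI_ins_198, ClassI_ins_202, ClassI_ins_207, ClassI_ins_209, ClassI_ins_215 and ClassI_ins_229. Among named insulators 1 of 6, ins_Fab-8, was seen. Levels are given as CPM, counts scaled to a common library size. By counting error alone, a count of 0 allows at most the level of 3 counts. That level lay between 0.399 and 1.72 CPM over the libraries of round 1 after TMM scaling. In round 2, 3 of 4 members were seen, and ins_1A2_assoc_peak was at 0 in both rounds. ClassI_ins_198, ins_Fab-7_minimal_overlap and ins_SF1_assoc_peak_center, at 0 in all 18 libraries of round 1, were each counted in all 12 libraries of round 2. At 0 an element has no measured effect on GFP, because a reporter that is missing from the embryos also gives a count of 0.

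Of the 18 members seen in round 1, 15 passed the filter on low counts and were tested, 14 of class I and ins_Fab-8. The 3 not tested were ClassI_ins_103, ClassI_ins_114 and ClassI_ins_132. In round 2 all 3 members seen were tested. Elements were compared by edgeR's quasi-likelihood test over all tested elements, 358 in round 1 and 155 in round 2, with Benjamini-Hochberg adjustment, and were called at an adjusted p under 0.05. Levels are CPM after scaling by the TMM method, log2 differences are low-GFP over control, and n is 6 libraries per population.

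The class I insulators ClassI_ins_29, ClassI_ins_196, ClassI_ins_210 and ClassI_ins_87 rose in low-GFP cells in round 1, by 2.94 to 4.70 on the log2 scale against CD2+ cells. Scaled to total counts instead of TMM, the rises were 2.29 to 3.90, and that of ClassI_ins_210 was not called. With TMM the called elements were 4 of the 15 insulators tested, or 26.7%, and 12.3% of all 358 tested elements rose in the same comparison. With the collection day as a block, 2 of the 15 insulators rose, or 13.3%, and 43 of the 358 elements, or 12%, did, so the insulators were then near the background. No insulator fell, and 8.38% of all elements did. The same 4 rose against CD2- cells, where 13.4% of all elements rose and 7.82% fell, and with the block 3 of 15 rose, or 20%, beside 12.8% of all elements. They also rose against the mean of both control populations, where 15.9% of all elements rose and 10.1% fell (26% in either direction), again with no insulator that fell, and with the block the same 4 rose beside 15.4% of all elements. The 3 comparisons share the low-GFP libraries and are not independent of each other. Binding data and insert sequences of these 4 windows were not used here.

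ClassI_ins_29 had 16783, 37898 and 56793 CPM as the lowest, median and highest of the 6 low-GFP libraries. In CD2+ libraries these were 1315, 2252 and 6844 CPM, and in CD2- libraries 205, 3877 and 8817 CPM. Every low-GFP library lay above all 12 control libraries, and the low-GFP library was the higher one on 6 of 6 days against either control. The element rose by 3.62 on the log2 scale against CD2+ cells (SE 0.66, edgeR adjusted p = 0.00068). Against CD2- cells it rose by 3.21 (SE 0.65, edgeR adjusted p = 0.00181). It ranked 4th of the 576 elements by mean share of counts in low-GFP cells, 90th in CD2+ cells and 55th in CD2- cells. It stayed called in every low-GFP comparison with 1 day or 1 library left out and under every scaling tried, but against single controls it was not called within either experiment alone.

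ClassI_ins_210 had 10832, 28920 and 56222 CPM as the lowest, median and highest in low-GFP libraries. In CD2+ libraries it had 1091, 2492 and 10139 CPM, and in CD2- libraries 10.6, 1910 and 3086 CPM. The low-GFP libraries did not overlap either control, but the lowest of them was close to the highest CD2+ library. The element rose by 2.94 against CD2+ cells (SE 0.89, edgeR adjusted p = 0.0225). Against CD2- cells it rose by 4.09 (SE 0.94, edgeR adjusted p = 0.00414), and it was higher on 6 of 6 days against each. With the collection day as a block the difference from CD2+ cells was 2.98 (SE 1.02, edgeR adjusted p = 0.0544), which was not called. It also missed the threshold there with scaling to total counts (log2 difference 2.29, edgeR adjusted p = 0.0615), without day 2, 3, 4 or 5, and without the CD2+ library of day 3 or of day 4, with adjusted p up to 0.101.

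ClassI_ins_196 was the most variable of the 4. Its low-GFP libraries had 5273, 26221 and 157238 CPM as lowest, median and highest. Its CD2+ libraries had 1.78, 903 and 3038 CPM, and its CD2- libraries 1.68, 2011 and 7005 CPM. It was close to absent in single control libraries, with 8 counts in CD2+ on day 3 and 7 counts in CD2- on day 1. The low-GFP libraries lay above all CD2+ libraries but overlapped the CD2- libraries, and the low-GFP value was higher on 6 of 6 days against each. The highest value, on day 4, was 5.65% of that library's counts, and its CPM is raised by the library's TMM factor of 0.360, the lowest of the 18. As plain shares of counts the lowest low-GFP library had 0.351% and the highest CD2+ library 0.376%, so without TMM scaling these groups overlapped.

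ClassI_ins_196 rose by 4.70 against CD2+ cells (SE 1.36, edgeR adjusted p = 0.0173). The rise against CD2- cells was 3.96 (SE 1.31, edgeR adjusted p = 0.0375). With the collection day as a block these were 4.75 (edgeR adjusted p = 0.0607) and 3.77 (edgeR adjusted p = 0.10), neither of them called. Without the low-GFP library of day 4 the differences were 4.16 (edgeR adjusted p = 0.0372) and 3.38 (edgeR adjusted p = 0.0848). The call against CD2+ cells was lost without day 2, 4 or 5, and the call against CD2- cells was lost without day 2, 4 or 5, without any of the CD2- libraries of days 2 to 5 and without the low-GFP library of day 3. Against CD2- cells it was also not called with scaling to total counts (log2 difference 3.09, edgeR adjusted p = 0.0753) or without the experiment term (4.14, edgeR adjusted p = 0.0555). Against both controls together the difference was 4.33 (SE 1.01, edgeR adjusted p = 0.00337), and this call held in the block and without any 1 day or library.

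ClassI_ins_87 was less abundant, at 4177, 7302 and 17573 CPM in low-GFP libraries. It had 69.0, 420 and 1468 CPM in CD2+ libraries and 5.28, 874 and 1780 CPM in CD2- libraries. The low-GFP libraries lay above all 12 control libraries, and were higher on 6 of 6 days against each control. The element rose by 3.98 against CD2+ cells (SE 0.95, edgeR adjusted p = 0.00496). Against CD2- cells the rise was 3.45 (SE 0.91, edgeR adjusted p = 0.0108). Its rank by mean share of counts was 37th of 576 in low-GFP cells, 243rd in CD2+ cells and 214th in CD2- cells. The call against CD2- cells was lost without day 4 (edgeR adjusted p = 0.0607).

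Counting libraries rather than fitting them, 4 of the 18 insulators seen had every low-GFP library above every CD2+ library, and 9.62% of the 416 elements seen did. Against CD2- libraries there were 3, ClassI_ins_29, ClassI_ins_87 and ClassI_ins_210, and 9.13% of all elements seen. The same 3 lay above all 12 control libraries, against 8.41% of all elements seen. No insulator had every low-GFP library below every library of either control, where 3.61% of elements did so for CD2+ and 3.37% for CD2-.

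The experiments of days 1 to 3 and of days 4 to 6 gave the same direction for all 4. The 4 were chosen on all these days together, so this is no replication. Against both controls together, ClassI_ins_29 was higher by 2.63 (SE 0.64, edgeR adjusted p = 0.0254) in the first experiment, and in the second by 4.05 (SE 0.72, edgeR adjusted p = 0.00781). ClassI_ins_87 was higher by 2.85 ± 1.13 (SE) and by 4.47 ± 0.72, with edgeR adjusted p of 0.127 and 0.00608. For ClassI_ins_210 the differences were 3.0 ± 0.97 and 3.92 ± 0.93, with edgeR adjusted p of 0.0669 and 0.0202. For ClassI_ins_196 they were 3.66 ± 1.52 and 4.82 ± 1.19, with edgeR adjusted p of 0.137 and 0.0238. The test of the difference between the experiments, made on low-GFP over CD2+, called none of the 15 insulators, and 1 of all 358 elements, or 0.279%. None of the 15 had an unadjusted p under 0.05 in it, and 14 of all elements did. For the 4 called elements its SE was 1.24 to 2.46 on the log2 scale, so a several-fold difference could not be told from none.

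The authors' deposited table for the first experiment of round 1, which set low-GFP libraries against CD2+ and CD2- libraries together, listed 17 insulators. Of these, 6 were higher in the authors' deposited table at an adjusted p under 0.05, with 17.8% of all its elements higher, and these were ClassI_ins_29, ClassI_ins_87, ClassI_ins_196, ClassI_ins_210, ClassI_ins_157 and ClassI_ins_103. For the second experiment the authors' deposited table had 6 higher insulators of 16, with 17.9% of all elements higher, and these were the same first 5 and ClassI_ins_114. Neither of the authors' deposited tables had an insulator that was lower at that threshold. ClassI_ins_103 had a mean of 1.43 scaled counts in controls and 186 in low-GFP libraries in the first experiment. ClassI_ins_114 had 1.06 and 514 in the second. Almost only low-GFP counts could bring this pair into the comparisons, so their rise there is no separate support. The fold of ClassI_ins_29 in the authors' deposited tables was 6.99 in the first experiment and 16.1 in the second. For ClassI_ins_196 the authors' deposited tables gave folds of 16.8 and 30.6, for ClassI_ins_210 folds of 11.0 and 12.04, and for ClassI_ins_87 folds of 9.81 and 20.8.

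ClassI_ins_61 was the most abundant insulator in control cells and was not called in any comparison. Its lowest, median and highest levels were 5331, 16538 and 37740 CPM in low-GFP libraries, 14790, 16928 and 24904 CPM in CD2+ libraries, and 11527, 15131 and 27407 CPM in CD2- libraries. The groups overlapped throughout, and the low-GFP library was the higher one on 3 of 6 days against CD2+ and on 2 of 6 days against CD2-. The log2 difference was -0.03 against CD2+ cells (95% interval -0.92 to 0.86, edgeR adjusted p = 0.957) and -0.00 against CD2- cells (95% interval -0.90 to 0.89, edgeR adjusted p = 0.991). As a plain share of counts it was 1.31% ± 0.933 of low-GFP libraries, 2.13% ± 0.644 of CD2+ libraries and 2.19% ± 0.671 of CD2- libraries (SD, n = 6). It ranked 3rd of 576 by mean share of counts in CD2+ and in CD2- cells and 21st in low-GFP cells.

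ClassI_ins_182 had 506, 1916 and 4618 CPM in low-GFP libraries, 1378, 4215 and 11397 CPM in CD2+ libraries, and 1956, 3561 and 6522 CPM in CD2- libraries. It was the lower one in low-GFP cells on 5 of 6 days against each control, and the groups overlapped. The log2 difference was -1.22 against CD2+ cells (SE 0.60, edgeR adjusted p = 0.179), and it was -0.81 against CD2- cells (SE 0.58, edgeR adjusted p = 0.395), so neither was called. Against CD2+ cells it was called lower with scaling to total counts (log2 difference -1.80, edgeR adjusted p = 0.0442) and without day 1 (log2 difference -1.77, edgeR adjusted p = 0.0396).

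Of the other tested class I insulators, ClassI_ins_157 and ClassI_ins_77 were picked out after their values were seen. By TMM-scaled CPM they were higher in low-GFP than in CD2+ cells on 6 of 6 days without being called. By plain share of counts this did not hold. ClassI_ins_157 had 0.0308% in low-GFP and 0.0883% in CD2+ on day 4, and ClassI_ins_77 had 0.428% and 0.543% on day 5. ClassI_ins_157 had 208, 1540 and 3723 CPM in low-GFP libraries, 0, 23.5 and 714 CPM in CD2+ libraries, and 0.960, 339 and 1215 CPM in CD2- libraries. Its log2 difference was 3.01 ± 1.80 (SE) against CD2+ cells and 2.30 ± 1.81 against CD2- cells, with edgeR adjusted p of 0.266 and 0.453. It was higher in the authors' deposited tables, at adjusted p = 0.0254 and 0.0336 in the first and second experiment. ClassI_ins_77 had a log2 difference of 2.01 against CD2+ cells (SE 1.11) and 0.60 against CD2- cells (SE 1.04), with edgeR adjusted p of 0.228 and 0.760. Both had control libraries as high as some low-GFP libraries.

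The remaining 6 tested class I insulators, also named after their values were seen, had no call in either direction and were at low levels in part of the libraries. ClassI_ins_17 and ClassI_ins_244 had negative log2 differences against both controls, of -1.84 and -3.87 against CD2+ cells (SE 1.60 and 2.69). ClassI_ins_212 had -1.10 against CD2+ cells and 0.16 against CD2- cells (SE 1.11 and 1.10). ClassI_ins_34 and ClassI_ins_36 were of opposite sign against the controls, at 1.37 and 1.44 against CD2+ cells and -0.99 and -2.16 against CD2- cells. ClassI_ins_94 had -0.67 against CD2+ cells, a value set by 1 library, since its CD2+ level on day 3 was 2617 CPM and the next highest CD2+ library had 198 CPM. Without that library its difference was 2.38 (SE 2.71, edgeR adjusted p = 0.589).

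Over all 15 tested insulators the median log2 difference was 1.37 against CD2+ cells, -0.00 against CD2- cells and -0.02 against both controls. Over all 358 tested elements these medians were -0.64, -0.45 and -0.61. The background group of 12 E. coli DNA windows in the same reporter had 8 tested elements, with medians of -2.07, -1.96 and -2.04. None of the 8 was called against CD2+ cells, and 1 was called higher against CD2- cells. Scaled to total counts the median of all elements against CD2+ cells was -1.18, with 39 elements higher and 48 lower, and scaled to the E. coli elements it was -0.42, with 41 higher and 18 lower. TMM scaling gave 44 higher and 30 lower, so the level of the low-GFP libraries as a whole depends on the scaling. The median TMM factor was 0.714 in low-GFP, 1.14 in CD2+ and 1.27 in CD2- libraries, so TMM raised low-GFP levels relative to the controls. The median of the 15 insulators against CD2+ cells was 0.33 with total counts and 1.56 with E. coli scaling. The insulators called higher against CD2+ cells were 4 with TMM, 3 with total counts and 4 with E. coli scaling.

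ClassI_ins_103, ClassI_ins_114 and ClassI_ins_132 sat at the edge of detection. ClassI_ins_103 had 371 counts in 5 of the 6 low-GFP libraries, none in the CD2+ libraries, and 6 counts in 2 of the CD2- libraries. Its mean in low-GFP libraries was at least 25.5-fold higher than the level that 3 counts per library would give in CD2+ cells. That limit covers counting error only. ClassI_ins_114 had 1557 counts in 4 low-GFP libraries, 2 counts in CD2+ and 3 in CD2-. ClassI_ins_132 had 1310 counts in 3 low-GFP libraries, of which 1166 came from 1 library, with 357 counts in 2 CD2+ libraries and 331 in 2 CD2- libraries. Without a filter on low counts 6 of 18 insulators were called higher in each of the 3 low-GFP comparisons, the 4 above with ClassI_ins_103 and ClassI_ins_114. Of all 416 elements then tested, 12.5% were called higher against CD2+ cells, 13.7% against CD2- cells and 16.6% against both. The counts of the latter pair come almost wholly from low-GFP libraries, so only those libraries could carry them past a filter.

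As a share of all read 1 counts, class I insulators were 9.92% ± 2.79 of low-GFP libraries (SD, n = 6), 4.52% ± 0.792 of CD2+ libraries and 4.74% ± 0.440 of CD2- libraries in round 1. The lowest, median and highest low-GFP library had 6.72%, 9.73% and 14.6%. In CD2+ libraries these were 3.10%, 4.60% and 5.43%, and in CD2- libraries 4.06%, 4.81% and 5.26%. Every low-GFP library was above every control library. The 4 called elements, chosen on this contrast, made up 7.84% ± 2.70 of low-GFP libraries, 0.999% ± 0.265 of CD2+ libraries and 1.13% ± 0.329 of CD2- libraries. All other insulators together, left after taking out those called higher, made up 2.22% ± 1.06 of low-GFP counts. They made up 3.74% ± 0.992 of CD2+ counts and 4.09% ± 0.835 of CD2- counts. Their share was lower in low-GFP cells on 6 of 6 days against each control. Without ClassI_ins_61, the most abundant of them, these shares were 0.915% ± 0.332, 1.60% ± 0.705 and 1.90% ± 0.790, and low-GFP was the higher one on 1 of 6 days against each control, day 1. Shares within a library sum to a fixed whole, so a gain of some elements lowers the share of others. The rest was set by the same contrast, so its lower share is no separate result. The E. coli elements had mean shares of 0.797% in low-GFP, 1.12% in CD2+ and 1.39% in CD2- libraries. Their low-GFP share was the higher one on 2 of 6 days against CD2+ and on 1 of 6 against CD2-.

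ins_Fab-8 was the single named insulator measured in round 1. It had 280, 1246 and 3890 CPM as the lowest, median and highest low-GFP library, 0.961, 1850 and 3616 CPM in CD2+ libraries, and 0.960, 2788 and 12755 CPM in CD2- libraries. The groups overlapped, and on day 1 the element was down to 4 counts in the CD2+ library and 4 counts in the CD2- library. The log2 difference was 0.02 against CD2+ cells (95% interval -2.92 to 2.95, edgeR adjusted p = 0.991) and -1.0 against CD2- cells (95% interval -4.11 to 2.10, edgeR adjusted p = 0.718). The intervals of the 4 called class I elements had lower ends of 1.08 to 2.23 against CD2+ cells, so all of them overlapped that of ins_Fab-8. Against CD2- cells their lower ends were 1.21 to 2.11, where the interval of ins_Fab-8 ended at 2.10. The 4 were chosen for their rise, and their difference from ins_Fab-8 was not tested. Both intervals of ins_Fab-8 are wide.

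The daily values of ins_Fab-8 had opposite signs in the experiments of round 1. Its low-GFP level was above CD2+ on 3 of 3 days of the first experiment and below it on 3 of 3 days of the second. The log2 difference from CD2+ cells was 0.99 (SE 2.09) in the first experiment and -2.25 (SE 0.99) in the second, with edgeR adjusted p = 0.804 and 0.201. The difference between the experiments was -3.65 (SE 2.50, edgeR unadjusted p = 0.164), so it did not reach the threshold before adjustment or after it. The ratio of low-GFP to control means was 1.84 in the authors' deposited table for the first experiment and 0.125 in that for the second, with adjusted p = 0.338 and 0.157 there.

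The CD2+ and CD2- populations, which differ in mesodermal identity but were not chosen for GFP, gave no called insulator. The 15 tested were uncalled, with log2 differences of CD2+ over CD2- from -3.60 to 1.26 and a median of -0.41. None of the 358 elements was called either, or 0%, with 6 elements but no insulator under 0.05 by unadjusted p, and by DESeq2 2 elements but no insulator were called. For ClassI_ins_29 the difference was -0.41 (95% interval -1.66 to 0.84), for ClassI_ins_210 1.15 (95% interval -0.63 to 2.92), for ClassI_ins_196 -0.74 (95% interval -3.20 to 1.72) and for ClassI_ins_87 -0.53 (95% interval -2.31 to 1.25). The intervals are wide, and a difference of several-fold could not be told from none for most elements.

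In round 2 none of the 3 measured insulators was called, and 9.03% of all 155 tested elements rose and 5.16% fell in low-GFP cells. By unadjusted p none of the 3 was under 0.05, and DESeq2 called none. Insulators were 0.395% ± 0.151 of low-GFP counts (SD, n = 6) and 0.403% ± 0.175 of CD2+ counts. The 12 E. coli elements in the same libraries were 8.18% ± 1.49 and 17.7% ± 1.12, and 4 of them fell. No insulator of round 2 had all low-GFP libraries above or all below the CD2+ libraries, as 5.81% and 2.91% of the elements seen had.

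ClassI_ins_198 had 1.13, 1596 and 2877 CPM as the lowest, median and highest low-GFP library and 0.881, 558 and 1808 CPM in CD2+ libraries. It was higher in low-GFP cells on 6 of 6 days by TMM-scaled CPM but on 4 of 6 days by plain share of counts, and the groups overlapped. On day 4 both libraries were near 0, with 3 counts in low-GFP and 5 in CD2+ cells. The log2 difference was 0.93 (95% interval -1.82 to 3.69, edgeR adjusted p = 0.678).

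ins_Fab-7_minimal_overlap had 242, 2546 and 4534 CPM in low-GFP libraries and 745, 1053 and 2484 CPM in CD2+ libraries. It was higher in low-GFP cells on 4 of 6 days, and its groups overlapped. The log2 difference was 0.76 (95% interval -0.85 to 2.37, edgeR adjusted p = 0.541).

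ins_SF1_assoc_peak_center had 99.8, 684 and 2192 CPM in low-GFP libraries and 0.212, 1093 and 3491 CPM in CD2+ libraries. It was lower in low-GFP cells on 4 of 6 days, and was higher on no day of the first experiment and on 2 of 3 days of the second. On day 5 its CD2+ library held 1 count. The log2 difference was -0.46 (95% interval -3.33 to 2.41, edgeR adjusted p = 0.849). In the authors' deposited tables the 3 elements of round 2 had adjusted p from 0.290 to 0.843, and 11.1% and 16.1% of all elements of those tables were higher.

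Class I and named insulators cannot be set against each other by a test, since named insulators were measured as 1 element in round 1 and 2 elements in round 2. Of the class I elements tested in either round, 4 of 15 were called higher in low-GFP cells, and of the named insulators 0 of 3 were called. Of all tested elements, 12.3% were called higher against CD2+ cells in round 1 and 9.03% in round 2. With the collection day as a block, 2 of the 4 stayed called against CD2+ cells. These counts are too small to tell the classes apart. None of the 4 called class I elements was listed in round 2, so their rise was seen in round 1 only.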

How the data were processed

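Inserts recovered by nested PCR from genomic DNA of sorted cells were sequenced, and the authors deposited whole-number counts of reads per element for each library and read. Read 1 counts were used, empty cells were read as 0, and all columns belonged to listed samples. The mapper is not given in the sources used here. The authors also deposited 4 comparison tables, with mean signal per population (base means), their ratio as a fold change, and an adjusted p-value, made with DESeq per the submitters' processing notes, with no version given.

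Counts were fitted per round with edgeR 4.0.16 in R 4.3.3 (low counts removed by filterByExpr with 10 as its minimum, scaling by TMM, population and experiment as terms), with Benjamini-Hochberg adjustment over all tested elements. SE is the log2 difference divided by the square root of F, so it restates the test. DESeq2 1.42.0, other scalings, no filter, single experiments, each day or library left out and the collection day as a replicate block were tried, and the steps were tested on simulated data. Same-day libraries come from a shared collection date in the labels. Their deviations correlated with a median of 0.223 over 18 pairs in round 1 and 0.476 over 6 pairs in round 2. P-values of the main fit measure the spread between libraries of a population within an experiment and ignore the shared day. Only the block fit uses the day. Amplified reads carry no molecular identifiers, so limits from counts cover counting error only.

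Members and lists were chosen with earlier results of these data known. Named insulators, class I elements called in any comparison and the 5 most abundant class I elements of each round were to be named with values. Other class I elements, tested or rare, were named after their values were seen. Genomic inserts and class I barcodes are not printed because no chromosome for them was used here.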

Additional observations from a re-analysis of the deposited data

Results flagged for a closer look

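With 6 libraries per population, a library was singled out where its gap to the next, as a part of the range of its group, passed Dixon's critical value. For normally distributed values chance gives this in about 1 in 20 groups. The values here are unlogged and some lie near 0, so that rate need not hold. Of 61 groups tested, 9 had such a library, and in all of them it was the highest. In round 1 low-GFP libraries of day 4, ClassI_ins_196 reached 157238 CPM with the next library at 36788 CPM, and ClassI_ins_36 reached 880 CPM with the next at 317 CPM. The TMM factor of that library was 0.360, the lowest of round 1. In CD2+ libraries, ClassI_ins_182 reached 11397 CPM on day 6 with the next at 4945 CPM, ClassI_ins_34 reached 375 CPM on day 3 with the next at 123 CPM, and ClassI_ins_94 reached 2617 CPM on day 3 with the next at 198 CPM. In CD2- libraries, ClassI_ins_94 reached 1499 CPM on day 3 with the next at 453 CPM, and ClassI_ins_34 reached 2209 CPM on day 6 with the next at 766 CPM. In round 2, ins_SF1_assoc_peak_center reached 2192 CPM in the low-GFP library of day 4 with the next at 813 CPM. The class I share, which is ClassI_ins_198 alone there, reached 0.242% of the CD2+ library of day 3 with the next at 0.0801%.

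By TMM-scaled CPM, the experiments of round 1 went opposite ways on every day for a pair of comparisons. For ins_Fab-8, low-GFP was above CD2+ on 3 of 3 days of the first experiment and on 0 of 3 days of the second, with a median daily log2 difference of -0.53 over the 6 days. The test of the difference between the experiments gave an edgeR unadjusted p = 0.164. For ClassI_ins_34, low-GFP was above CD2- on 3 of 3 days of the first experiment and on 0 of 3 days of the second. Its median daily log2 difference was -0.62, and the difference between the experiments against CD2- cells was not tested. Its day 2 values were nearly equal, at 146.63 CPM in low-GFP and 146.55 CPM in CD2-. By plain share of counts low-GFP was the lower one on that day, 0.0103% against 0.0191%.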

How the results depend on the processing

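Over the alternatives, the log2 differences of the 4 called elements in 3 comparisons kept their direction in 420 of 420 values and stayed called in 377. The 4 were chosen on these same libraries, which the refits and the 3 comparisons share, so the kept direction is no separate support. Against CD2+ cells the count of 4 called insulators became 2 with the replicate block of collection day, beside 43 of all 358 elements, 1 with the first experiment only and 1 with the second only, beside 2.54% and 1.74%, and ran from 2 to 5 with 1 day or library left out. The 1 of the first experiment was ClassI_ins_103, so 0 of the 4 stayed called there, and the 1 of the second was ClassI_ins_87. Against CD2- cells it became 0 with either experiment alone, where 7 and 0 of all elements were called higher, and ran from 2 to 4 with 1 day or library left out. Against both controls it was 2 with the first experiment only, beside 9.60% of all elements, and ran from 4 to 5. The 2 were ClassI_ins_29 and ClassI_ins_103, so 1 of the 4 stayed called. Fewer libraries enter these fits. ClassI_ins_182 was the 5th element without day 1, in the lower direction. The block changed no other count of called insulators by over 1.5 times.

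Uncalled differences turned sign in 131 of 1767 values. Those that moved by more than their SE were as follows, and the cause was not tested. With the first experiment only, ins_Fab-8 was 0.65 against CD2- cells and 0.82 against both controls, ClassI_ins_34 was 0.39 against CD2- cells, ClassI_ins_36 was 2.30 against both controls, and ClassI_ins_182 was -0.42 for CD2+ over CD2-. With the second only, ins_Fab-8 was -2.25 against CD2+ cells, ClassI_ins_36 was 0.65 against CD2- cells and 0.21 for CD2+ over CD2-, and ins_SF1_assoc_peak_center in round 2 was 0.92. ClassI_ins_94 against CD2+ cells was 2.66 with the replicate block, 2.58 without day 3 and 2.38 without the CD2+ library of day 3, in a range of -1.47 to 2.58 with 1 day or library left out. ClassI_ins_61 against CD2- cells was 0.45 scaled to E. coli elements. ClassI_ins_182 for CD2+ over CD2- was -0.22 without day 6, in a range of -0.22 to 0.69. Scaling moved the count of all elements called in round 2 from 14 higher and 8 lower to 8 higher and 17 lower by total counts, and to 23 higher and 2 lower by E. coli elements, with no insulator called.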
